A study of Mus musculus with 22 samples.

Results

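Common myeloid progenitors (CMP) from mice in which Arid1a had been deleted were compared with CMP from mice that had kept it, in 6 RNA-seq libraries, each from 1 mouse, out of the 22 RNA libraries of the series. CMP were sorted from bone marrow as Lin-Kit+Sca1-CD34+ cells with low FcγRII/III. The 3 knockout (KO) mice, numbered 301, 304 and 308, were Arid1a f/f;Mx1-Cre+ and the 3 wild-type (WT) mice, 300, 305 and 309, were Arid1a f/f;Mx1-Cre-. All of them were on a C57BL/6 background, to which the paper had backcrossed the floxed strain for several generations. They received poly(I:C) as adults, and the paper sorted the cells about a month later. Both groups thus carried the floxed allele and had been given the inducer, but only the KO group carried Cre. Mx1-Cre is switched on by interferon and is not limited to blood cells, so the marrow in which the KO cells lived may have recombined as well, and the effect of Cre itself cannot be told apart from that of the lost gene. The same 6 mice also gave libraries of granulocyte monocyte progenitors (GMP) and megakaryocyte erythrocyte progenitors (MEP), which are used here only where they show how CMP differ.

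ARID1A (BAF250a) is the DNA-binding subunit that defines the BAF form of the SWI/SNF complex, a machine that slides and ejects nucleosomes and so opens promoters and enhancers to transcription factors. CMP are the stage at which the granulocyte and monocyte path and the megakaryocyte and erythroid path are both still possible. Cells primed for one path or the other already transcribe low levels of its genes, under factors such as C/EBPα, PU.1 and IRF8 on the myeloid side and GATA1 and KLF1 on the erythroid side.

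Counts were given per transcript and summed per gene, so they do not measure the floxed exon on its own and a transcript without it still counts as Arid1a. The paper reports, from its view of the locus, that this exon was completely deleted in KO CMP, GMP and MEP. Levels are given as CPM, which are counts scaled to the total of the library, always in the order of WT mice 300, 305 and 309 and then KO mice 301, 304 and 308. Arid1a (ENSMUSG00000007880) stood at 451, 426 and 448 CPM in WT and 402, 365 and 367 CPM in KO. The KO mice were all below the WT mice, and the log2 fold change was -0.22 (SE 0.06, adjusted p = 0.0284 by the quasi-likelihood test of edgeR, adjusted by Benjamini-Hochberg over all genes). Arid1b, the paralog that can take the place of ARID1A in the complex, stood at 297.75, 240.44 and 269.01 CPM in WT and 285.34, 272.79 and 278.89 CPM in KO, with overlapping groups (log2 fold change 0.05, SE 0.08). Of 30 SWI/SNF subunit genes tested, 2 rose (Phf10, 0.24, of the PBAF form, and Bcl11a, 0.39, also an erythroid repressor of fetal globin) and 2 fell (Arid1a and Dpf2, -0.33, a reader of histone marks in BAF). Each count was 6.67% of the list, under the 10.6% that rose and the 12.8% that fell among all genes tested. The other 26 did not pass the test, and with neighbouring mouse numbers as pairs 5 rose, while without mice 305 and 304 only 1 did. With 1 mouse left out, Arid1a (call lost without mouse 309, edgeR adjusted p = 0.106) and Phf10 (call lost without mouse 300, 309, 301 or 304, edgeR adjusted p up to 0.136) could lose the call.

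The 6 libraries held between 42575900 and 60789922 estimated counts on genes. Kit, Cd34 and Fcgr2b, which encode proteins used in the sort, were present in every library, Ly6a (Sca1) did not exceed 3.88 CPM, and Cd3e, Cd8a and Ly6g of mature cells had at most 13 counts in any library. Fcgr3, part of the FcγRII/III gate, fell (log2 -1.24), and Itgam (CD11b), which lineage stains often include, rose (log2 1.92). The paper reports unchanged proportions of CMP and GMP in KO marrow, but less CD34 on their surface and more MEP. Whether the CD34 gate held the same cells in both genotypes was not tested. The sum over 4 Y-linked genes was 2.4 CPM in WT mouse 305 and 3 CPM in KO mouse 304, against 242 to 246 CPM in the other 4. Xist stood at 1466 CPM in WT mouse 305 and at 1.22 CPM in KO mouse 304, so 1 library of each genotype lacked Y-linked transcripts but only that of mouse 305 held Xist. A count of list members is therefore also given without these mice, or with neighbouring numbers as pairs, where either moves it by more than 1.5 times.

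A gene was called changed at a false discovery rate (FDR) under 0.1. Of 17214 genes tested, 4030 were called (23.4%), 1830 higher (10.6%) and 2200 lower (12.8%) in KO. Counts of list and family members below are to be read against these shares of all genes. Without KO mouse 301 the lower calls were 1438. With neighbouring mouse numbers as pairs, 2537 genes were called higher and 2886 lower. Without the mice that lacked Y-linked transcripts, 1685 were higher and 1951 lower. Counts of list members given for either alternative are to be read against its own numbers, not against the shares above. Many of the 4030 changes were small. More than 2-fold were 617 rises and 687 falls, and more than 4-fold were 204 rises and 216 falls. Under a stricter call, which also asked for 1 FPKM on average and a log2 change of more than 0.5 either way, 747 genes rose (4.34%) and 743 fell (4.32%). Above 1 FPKM the log2 fold changes had a median SE of 0.087. The WT mice were littermates of KO mice, by the study's methods, but which mice share a litter is not given, so p-values measure the spread between these 6 mice and pairs rest on neighbouring numbers. In bulk RNA, a shift in how many cells of a type a sort holds and a shift in RNA per cell cannot be told apart.

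In KO CMP, genes typical of MEP rose more often than they fell and genes typical of GMP fell more often than they rose. For this, genes were sorted by their level in WT MEP and WT GMP, libraries that the CMP comparison does not use, into MEP-high and GMP-high genes (FDR under 0.1 and more than 4-fold, 4.72% and 13% of genes tested in that comparison). Of 686 MEP-high genes tested in CMP, 336 rose (49%) and 60 fell (8.75%), with a median log2 fold change of 0.52. The falls were 38 without KO mouse 308 and 39 without WT mouse 300. Among 2019 GMP-high genes, 229 rose (11.3%) and 756 fell (37.4%), with a median of -0.29. The 13744 genes of neither class stayed near the background, with 8.34% higher, 9.68% lower and a median of 0.00. Each class also held genes that went the other way, as its counts show.

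**Figure D1:**
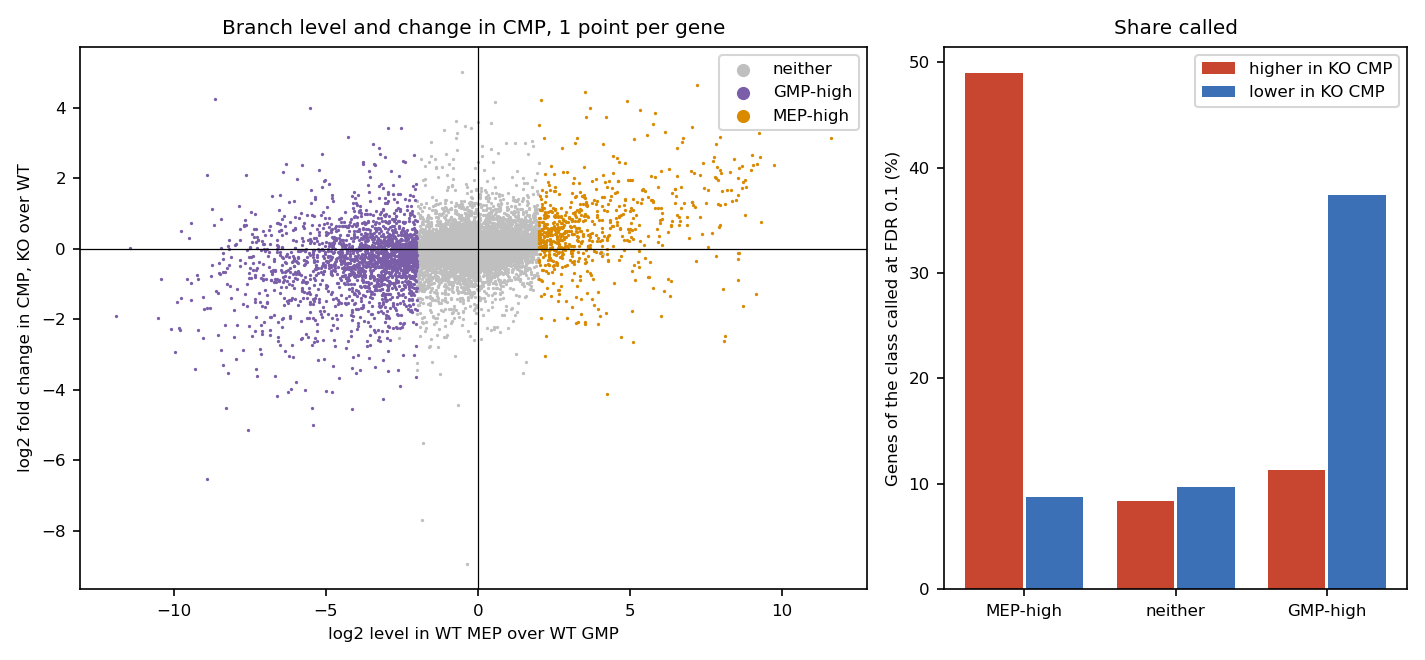
Left, the log2 level of each gene in WT MEP over WT GMP (x) against its log2 fold change in CMP, KO over WT (y), coloured by class. Right, the percentage of each class called at an FDR of 0.1. Of the MEP-high genes 49% were higher in KO CMP and 37.4% of GMP-high genes were lower.

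Erythroid genes rose far more often than they fell. Over 105 genes tested in 6 erythroid lists, 62 rose (59%) and 4 fell (3.81%), with a median log2 fold change of 0.35 against -0.00268 over all genes tested. In 64 of the 105 (61%) every KO mouse was above every WT mouse, against 15.7% of all genes tested, and in 6 every KO mouse was below, against 18.3% of all genes. The KO mice were not alike, since mouse 304 was the highest of them in 51 of the 62 genes and mouse 308 the lowest in 51. Promoters of 4 of these genes are shown because they hold the hexamer AGATAA or its complement TTATCT, in capitals, the core of the motif that GATA factors bind. Each line gives the last 100 bases before the annotated start, 5′ to 3′ on the strand of the gene, from RefSeq on GRCm38.
Alas2, chrX:150547317-150547416, plus strand: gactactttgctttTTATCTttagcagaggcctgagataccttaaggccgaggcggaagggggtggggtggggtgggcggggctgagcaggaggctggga
Pklr, chr3:89136042-89136141, plus strand: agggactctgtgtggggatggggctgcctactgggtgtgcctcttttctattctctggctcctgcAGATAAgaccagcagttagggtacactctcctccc
Rhd, chr4:134864436-134864535, plus strand: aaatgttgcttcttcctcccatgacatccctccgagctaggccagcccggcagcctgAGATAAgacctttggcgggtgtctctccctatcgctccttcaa
Kel, chr6:41704326-41704425, minus strand: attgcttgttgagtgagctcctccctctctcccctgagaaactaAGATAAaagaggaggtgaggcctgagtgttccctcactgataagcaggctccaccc
In the 250 bases before the start, searched on both strands, 11 of 48 risen erythroid genes with an entry held the hexamer (22.9%), beside 15 of 81 of all erythroid genes tested (18.5%), whether they rose or not, and against 7.91% of all genes tested in CMP with an entry and 11.4% of the whole table. The pentamer CACCC or GGGTG, part of the motif of KLF1, stood in 81.2% of the risen erythroid genes, 76.5% of all erythroid genes tested and 61.2% of all genes tested. These are matches of letters, and no binding was measured here.

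Hemoglobin genes had the highest median of the erythroid lists, 2.97 over the 4 tested, all of which rose. Hbb-bs, the main adult β-globin of this strain, stood at 11.1, 13.3 and 5.43 CPM in WT and 69.4, 86.9 and 86.1 CPM in KO. Every KO mouse was far above every WT mouse, a log2 fold change of 3.01 (SE 0.27). Hbb-bt (3.05), Hba-a1 (2.85) and Hba-a2 (2.92) rose alike, but these are near-identical pairs between which the counting could split reads. Their summed TPM was 49.4 to 127 in WT and 631 to 878 in KO.

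Heme synthesis changed at most of its steps. Of 16 genes tested, 11 rose and none fell (median 0.65). Alas2, the erythroid 5-aminolevulinate synthase that sets the pace of the pathway, stood at 0.739, 0.825 and 0.378 CPM in WT and 4.83, 6.74 and 4.43 CPM in KO (log2 fold change 3.02, SE 0.30, edgeR adjusted p = 0.000304). Alas1, which makes the same molecule in other cells, did not pass the test (-0.34), but fell with the mice as pairs (edgeR adjusted p = 0.00823) and without mice 305 and 304 (edgeR adjusted p = 0.0633). Further along the pathway, Alad rose by 0.65, Uros by 0.65, Urod by 0.66, Cpox by 1.46 and Ppox by 0.83 on the log2 scale. Fech, which inserts the iron at the last step, did not pass the test (0.07, SE 0.13), and its groups overlapped. Among the enzymes that rose, Uros could lose the call (call lost without mouse 309, edgeR adjusted p = 0.102).

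Red cell membrane and skeleton genes rose further, 17 of 24, with a median log2 fold change of 1.52. Rhag, the Rh-associated ammonium channel, stood at 14.5, 15.97 and 11.9 CPM in WT and 67.9, 82.3 and 43.5 CPM in KO (log2 2.19). Ank1, the ankyrin that ties band 3 to the skeleton, stood at 34.5, 39.3 and 30.5 CPM in WT and 158, 177 and 96.7 CPM in KO (log2 2.05). In both, KO mouse 308 was the lowest of the KO mice and still more than 2-fold above each WT mouse. Band 3 itself (Slc4a1) rose by 2.73 with a wide error (SE 0.58), since KO mouse 304 held 24.1 CPM and the other KO mice 7.68 and 6.44. Epb42 (2.07), Dmtn (dematin, 3.32), and the blood group genes Rhd (2.24) and Kel (1.71) also rose. Cd36, a fatty acid receptor of early erythroid cells (-0.95, call lost without mouse 309, 301 or 308, edgeR adjusted p up to 0.11), and Mfsd2b, a lipid exporter (-0.19, call lost without mouse 300, 309, 301, 304 or 308, edgeR adjusted p up to 0.258), fell.

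Erythroid transcription factors had smaller fold changes. Klf1, which drives globin, membrane and heme genes, stood at 62.01, 75.3 and 58.4 CPM in WT and 151, 164 and 121 CPM in KO (log2 1.15, SE 0.13, edgeR adjusted p = 0.000465), and Klf3, which it activates, at 52.1, 43.1 and 52.1 CPM in WT and 104, 97.7 and 101 CPM in KO (log2 1.04). Gata1 rose by 0.35 (SE 0.12, edgeR adjusted p = 0.0814), with WT mouse 305 at 111 CPM between KO mice 308 (109.9) and 301 (126). The call of Gata1 depended on single mice (call lost without mouse 300, 309, 301 or 304, edgeR adjusted p up to 0.251). Tal1 (0.13), Gfi1b (0.10), Zfpm1 (-0.13), Lmo2 (0.08) and Nfe2 (0.00), which work with GATA1 or beside it, did not pass the test. In all, 11 of 20 factors rose and none fell (median 0.24), or 1 (Lyl1) with the mice as pairs.

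Epor, the erythropoietin receptor, stood at 37.8, 40.5 and 34.1 CPM in WT and 95.3, 99.9 and 73.2 CPM in KO (log2 1.25, SE 0.12). Its groups were well apart. Genes of iron entry rose too, namely Tfrc (transferrin receptor, 0.81), Tfr2 (0.68) and Steap3 (0.94), as did the exporter Slc40a1 (ferroportin, 1.07). The heme exporter Flvcr1 (-0.38) and ferritin heavy chain Fth1 (-0.20, call lost without mouse 309, 301 or 308, edgeR adjusted p up to 0.186) fell, and mitoferrin Slc25a37 did not pass the test (-0.03, SE 0.06). Of 21 iron genes, 6 rose and 2 fell. Red cell pyruvate kinase, Pklr, stood at 46.5, 45.1 and 44.7 CPM in WT and 253, 257 and 195 CPM in KO (log2 2.37, SE 0.10), a rise that was tight among the mice. Blvrb (1.02), Hebp1 (1.46) and Car2 (0.64) rose, while Car1, a carbonic anhydrase of early erythroid cells, did not pass the test (-0.11, SE 0.08).

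**Figure D2:**
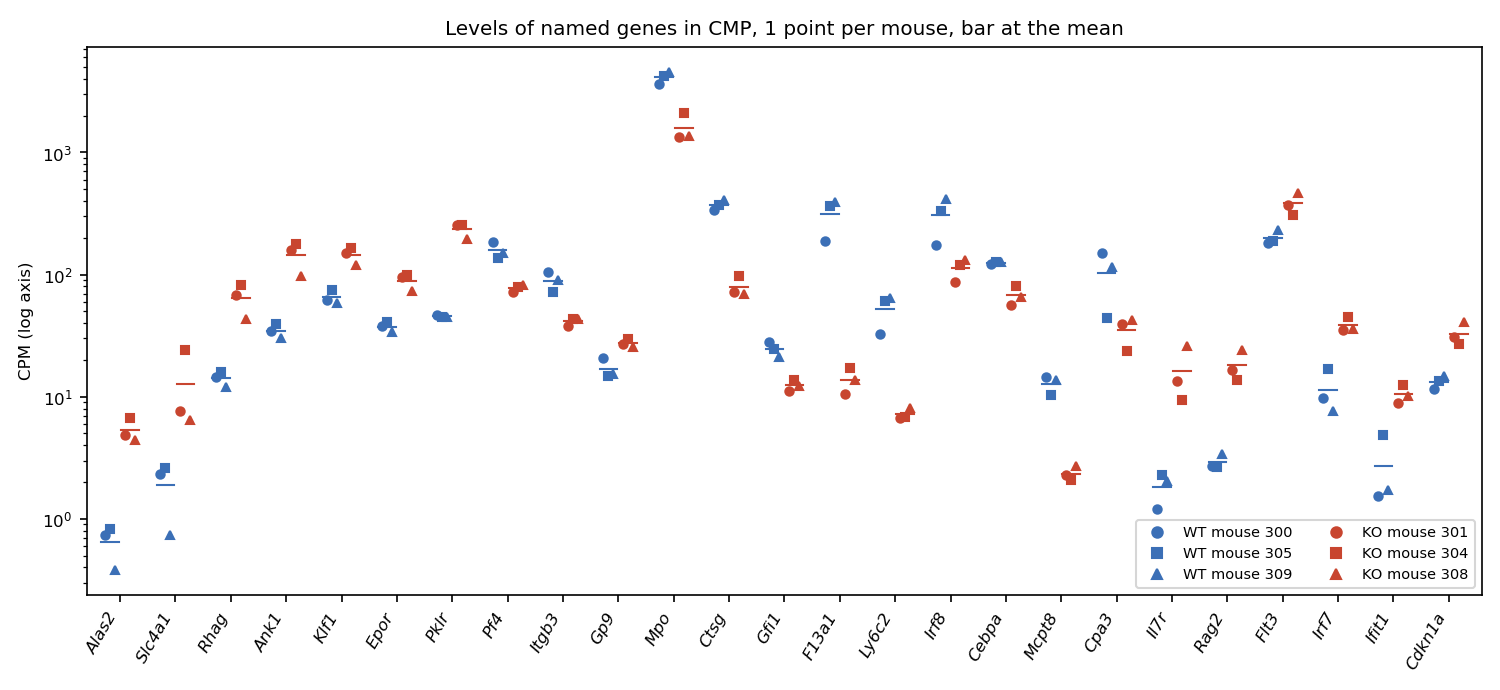
Levels of 25 genes in CMP in CPM on a log axis, with 1 point per mouse and a bar at the mean of each genotype. CPM are not divided by gene length, so levels compare within a gene, for example Pklr at 44.7 to 46.5 in WT and 195 to 257 in KO.

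Megakaryocyte and platelet genes fell more often than they rose. Of 37 tested, 21 fell and 4 rose (median -0.52). By their level in WT MEP and WT GMP, 13 of the 21 that fell were GMP-high and none was MEP-high, and of all 37 tested 18 were GMP-high and 2 MEP-high. The summed TPM of the list was 2101 to 2882 in WT and 1729 to 1831 in KO. Pf4 (platelet factor 4) stood at 186, 136 and 152 CPM in WT and 71.6, 79.6 and 82.4 CPM in KO (log2 -1.02, SE 0.11). Itgb3, the β3 chain of the fibrinogen receptor, stood at 105, 72.5 and 91.1 CPM in WT and 37.9, 43.4 and 43.1 CPM in KO (log2 -1.11, SE 0.12). In both, the groups did not overlap. Its partner Itga2b (-0.57), the von Willebrand receptor chain Gp1bb (-0.69), Vwf itself (-0.41, call lost without mouse 300, 301 or 308, edgeR adjusted p up to 0.183), Clec1b (-2.07) and the factor Fli1 (-0.39) fell too. Gp9 (0.70) and Gp1ba (0.84), chains of the same von Willebrand receptor, rose, as did Nbeal2 (0.48) and the ADP receptor P2ry12, from 0.126 to 0.165 CPM in WT to 2.08 to 5.299 in KO.

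On the granulocyte side, primary granule genes fell together. Of 22 tested, 15 fell and none rose (median -0.74), and with the mice as pairs 3 rose. Mpo (myeloperoxidase) stood at 3659, 4247 and 4568 CPM in WT and 1333, 2095 and 1355 CPM in KO (log2 -1.38, SE 0.17, edgeR adjusted p = 0.000837). Ctsg (cathepsin G) stood at 341, 372 and 405 CPM in WT and 71.4, 97.1 and 69.7 CPM in KO (log2 -2.23, SE 0.13). KO mouse 304 held the most of both among KO mice and was still below every WT mouse. Prss57, a serine protease of the same granules, fell (-0.63), and so did Elane (neutrophil elastase, -0.84, call lost without mouse 305, 309, 301 or 308, edgeR adjusted p up to 0.147). Prtn3 (proteinase 3, -0.46) and Ms4a3 (0.30) did not pass the test, but did with the mice as pairs (edgeR adjusted p = 0.00527 and 0.0654), and Prtn3 also without mice 305 and 304 (edgeR adjusted p = 0.0281).

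Late granule genes spread widely among WT mice. S100a9 stood at 34.2, 7.12 and 15.3 CPM in WT and 4.23, 3.44 and 6.802 CPM in KO, with WT mouse 305 far below WT mouse 300 and barely above the highest KO mouse (log2 -1.97, SE 0.51, call lost without mouse 301, edgeR adjusted p = 0.111). Ltf (lactoferrin, -2.44), Ngp (-2.12) and S100a8, whose groups overlapped (-1.62, call lost without mouse 300, 301 or 304, edgeR adjusted p up to 0.169), fell, and 11 of 23 genes fell in all, 16 without the mice 305 and 304. Itgam (1.92), Fcnb (ficolin B, 1.18, call lost without mouse 309, 301 or 308, edgeR adjusted p up to 0.154) and Stfa1 rose. Stfa1 had no counts in any WT library and 0.237 to 0.752 CPM in KO, and it belongs to a cluster of near-identical genes.

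Monocyte and dendritic cell genes held some of the largest falls. F13a1 (coagulation factor XIII A chain, a monocyte gene) stood at 187, 366 and 396 CPM in WT and 10.4, 17.2 and 13.6 CPM in KO, a log2 fold change of -4.52 (SE 0.31, edgeR adjusted p = 5.20e-05). Ly6c2, the antigen of inflammatory monocytes, stood at 32.3, 61 and 63.8 CPM in WT and 6.65, 6.88 and 8.15 CPM in KO (log2 -2.86, SE 0.24). Irf8, the factor that selects monocyte and dendritic fates, stood at 174, 332 and 413 CPM in WT and 87.5, 119 and 131 CPM in KO (log2 -1.45, SE 0.28). In these genes WT mouse 300 lay well below the other WT mice, yet above all KO mice. Klf4 (-3.65), H2-Aa (-3.34), H2-Eb1 (-2.58), Cd74, with overlapping groups (-1.76, call lost without mouse 305, 309 or 301, edgeR adjusted p up to 0.136), and Ly86 (-1.6) fell as well. Of the receptors that define monocytes, Ccr2 (-0.05) and Csf1r (-0.53) did not pass the test, though Csf1r did with the mice as pairs (edgeR adjusted p = 0.00393). Adgre1 (F4/80, 1.51) and Tgfbi (1.99) rose. In all, 13 of 31 genes fell and 4 rose, 8 with the mice as pairs.

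Of 40 myeloid transcription factors, 15 fell and 4 rose, 7 without mice 305 and 304. Cebpa, which CMP need to become GMP, stood at 122, 126 and 127 CPM in WT and 56.5, 81.1 and 65.6 CPM in KO (log2 -0.88, SE 0.11). Cebpb (-1.28), Gfi1 (-0.99), Rxra (-0.89), Nfil3 (-1.19), Runx1 (-0.60), Runx2 (-0.50, call lost without mouse 309, 301 or 304, edgeR adjusted p up to 0.143) and Gata2 (-0.69) fell. Spi1, which encodes PU.1, did not pass the test (-0.12, SE 0.11), but did with the mice as pairs (edgeR adjusted p = 0.0692). Cebpe did not pass (-0.27, SE 0.31), but did without mice 305 and 304 (edgeR adjusted p = 0.0722). Runx3 (0.28, call lost without mouse 305 or 308, edgeR adjusted p up to 0.121) and Id1, an inhibitor of E proteins (1.77), rose.

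Of 27 mast cell and basophil genes, 13 fell and 6 rose. The summed TPM of the list went the other way, from 2183 to 2710 in WT to 3318 to 3669 in KO. Without Ifitm1, its most abundant member, the sum was 1954 to 2453 in WT and 1782 to 1901 in KO. Prss34 (a basophil protease) stood at 1.598, 1.61 and 4.39 CPM in WT and 0, 0.0661 and 0.135 CPM in KO (log2 -5.14, SE 0.71), and KO mouse 301 had no counts. Mcpt8 stood at 14.4, 10.3 and 13.7 CPM in WT and 2.27, 2.08 and 2.698 CPM in KO (log2 -2.45, SE 0.17). Cpa3 (mast cell carboxypeptidase, -1.54), Mitf (-1.24), Ms4a2 (-1.01) and Hdc (histidine decarboxylase, -0.75) fell, the last 2 with overlapping groups (Ms4a2 call lost without mouse 301, edgeR adjusted p = 0.119 and Hdc call lost without mouse 300, 309, 301 or 308, edgeR adjusted p up to 0.242). Fcer1a, the α chain of the IgE receptor, did not pass the test (0.81, SE 0.36), but did with the mice as pairs (edgeR adjusted p = 0.0792). The 6 that rose were Ifitm1, Cd7, Il18rap, Ccl4, Cd200r3 and Il1rl1, of which Ifitm1 was at 52.9 to 84.1 CPM in WT and 463 to 543 in KO, and is also induced by interferon. Cd200r3 (call lost without mouse 300, 305, 309, 304 or 308, edgeR adjusted p up to 0.326) and Il1rl1 (call lost without any 1 mouse, edgeR adjusted p up to 0.234) depended on single mice. Of 13 eosinophil genes, 4 fell (Serpinb2, Alox15, Il5ra, call lost without mouse 300, 309, 304 or 308, edgeR adjusted p up to 0.212, and Xbp1, call lost without mouse 305, 309, 301 or 304, edgeR adjusted p up to 0.285) and none rose, and without mice 305 and 304 the count was 9. Epx, the eosinophil peroxidase, did not pass the test (0.00, SE 0.29).

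**Figure D3:**
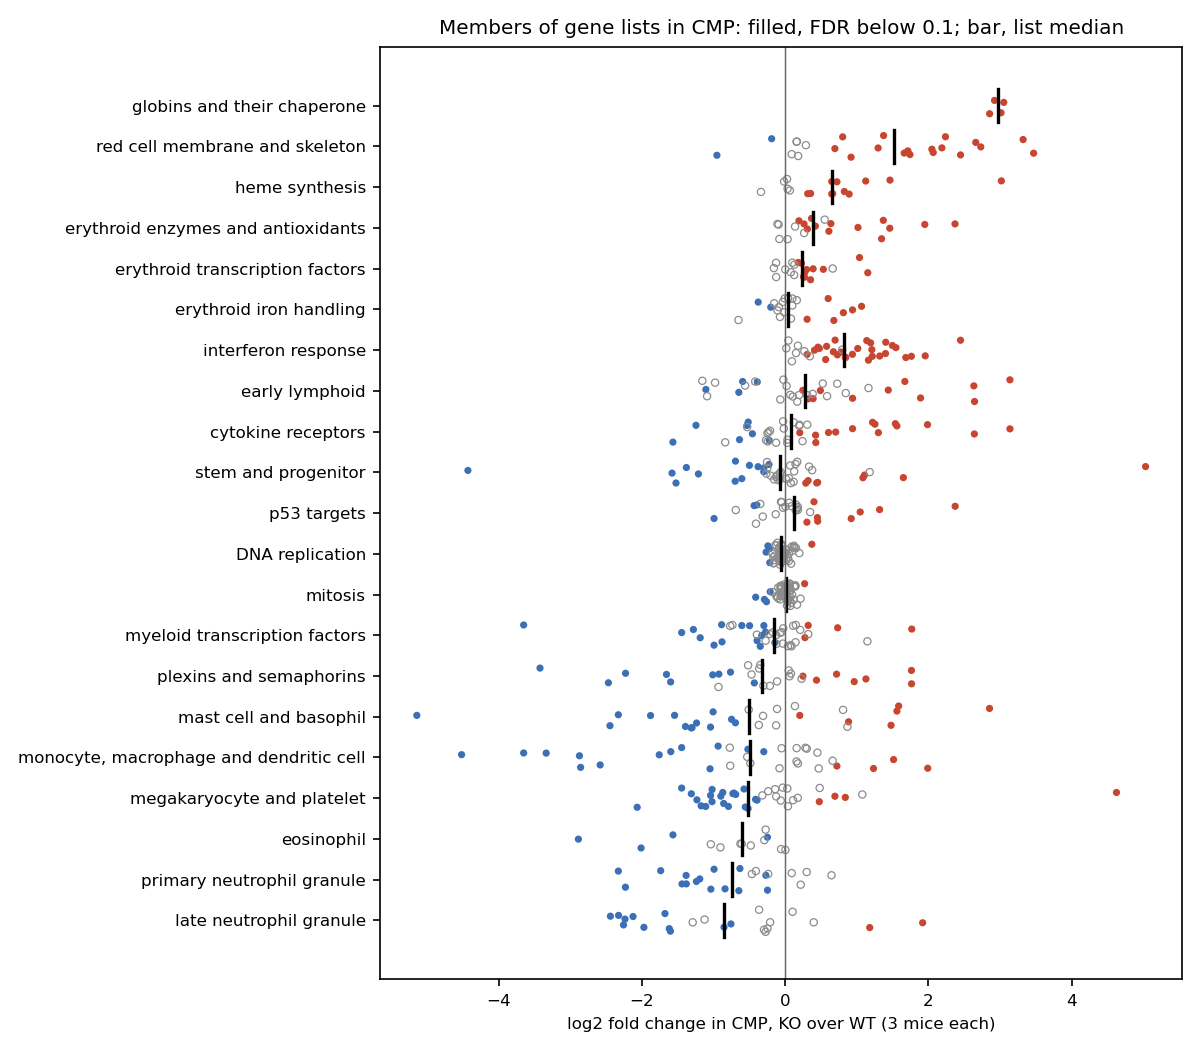
Log2 fold change in CMP (x) of every tested member of 21 gene lists, filled where the FDR was under 0.1 and open elsewhere, with a bar at the median of each list. Stfa1 of the late granule list, without counts in WT, is counted in the median but not drawn. The medians of the 6 erythroid lists and of the interferon list lie to the right of 0, though that of iron handling only at 0.04. Those of the granule, eosinophil and megakaryocyte lists lie to the left.

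Early lymphoid genes rose more often than they fell. Of 34 tested, 11 rose (32.4%) and 4 fell (11.8%). Il7r, the interleukin-7 receptor, stood at 1.202, 2.28 and 2.03 CPM in WT and 13.3, 9.32 and 25.8 CPM in KO (log2 3.14, SE 0.40, edgeR adjusted p = 0.000945). Rag2, a subunit of the recombinase of antigen receptor genes, stood at 2.73, 2.64 and 3.38 CPM in WT and 16.4, 13.7 and 24.03 CPM in KO (log2 2.63, SE 0.22), and Flt3, the receptor of lymphoid-primed progenitors, at 182, 189 and 230.2 CPM in WT and 375, 309 and 469 CPM in KO (log2 0.94, SE 0.15). In all 3 genes mouse 308 was the highest KO mouse and mouse 304 the lowest, while in most risen erythroid genes 304 was the highest and 308 the lowest. Rag1 (2.64), Blnk (1.89) and Ltb (1.67) rose. The B cell factors Ebf1 (0.11) and Pax5 (-1.16) were below 1 CPM in every library and did not pass the test. Dntt, which adds bases at the joints of antigen receptor genes, did not pass either (0.85, SE 0.42), but did without mice 305 and 304 (edgeR adjusted p = 0.00935).

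Stem cell genes split. Of 43 tested, 8 rose (18.6%) and 13 fell (30.2%), against 10.6% and 12.8% of all genes. Mecom, a factor of long-term stem cells, stood at 11.4, 13.9 and 10.02 CPM in WT and 24.2, 26.8 and 25.3 CPM in KO (log2 1.11), and Slamf1 (CD150, 1.65), Hoxa9 (0.45) and Hoxa10 (1.09) rose. Fgd5, a stem cell reporter gene, stood at 3.44, 2.76 and 2.72 CPM in WT and 0.281, 0.0331 and 0.116 CPM in KO (log2 -4.43), and Procr (-1.58), Prdm16 (-1.38), Tek (-1.21) and Gata2 fell. Meis1 (-0.06), Hlf (0.05), Kit (-0.13) and Cd34 (-0.20) did not pass the test, though Cd34 did with the mice as pairs (edgeR adjusted p = 0.023).

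Receptors for cytokines changed in both directions. Of 38 tested, 14 rose and 7 fell, 11 with the mice as pairs. Il6ra stood at 66.9, 80.6 and 96.2 CPM in WT and 28.8, 36.6 and 37.2 CPM in KO (log2 -1.25, SE 0.14), and the α chains of the GM-CSF and interleukin-3 receptors, Csf2ra (-0.53) and Il3ra (-0.46), fell while Csf2rb (0.43), the β chain they share, and its close paralog Csf2rb2 (1.54), a β chain of the interleukin-3 receptor, rose. Il4ra stood at 49.7, 66.8 and 58.8 CPM in WT and 121, 133 and 155 CPM in KO (log2 1.22), and Il18r1 (2.64) and Il1r1 (1.3) rose. Csf3r, the G-CSF receptor, did not pass the test (-0.25, SE 0.10), but did without mice 305 and 304 (edgeR adjusted p = 0.00486). Among 36 ligands, 8 fell (22.2%) and 6 rose (16.7%), against 12.8% and 10.6% of all genes. Csf1, which feeds macrophages, stood at 8.95, 7.55 and 7.58 CPM in WT and 1.01, 1.69 and 1.16 CPM in KO (log2 -2.63, SE 0.21), and oncostatin M (Osm) at 9.29, 9.08 and 8.58 CPM in WT and 1.79, 1.87 and 1.79 CPM in KO (log2 -2.3, SE 0.13). In both, every KO mouse was several times below every WT mouse.

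Genes induced by type I interferon rose in KO CMP, 28 of 36 with none lower (median 0.82). Both genotypes had received poly(I:C), which induces interferon, about a month before the cells were sorted. Irf7, the factor that amplifies the response, stood at 9.74, 16.8 and 7.58 CPM in WT and 35.2, 44.99 and 36.2 CPM in KO (log2 1.76, SE 0.26). Ifit1 stood at 1.53, 4.84 and 1.72 CPM in WT and 8.85, 12.6 and 10.2 CPM in KO (log2 1.96, SE 0.40), and Mx1, whose promoter drives the Cre of this model, at 1.27, 4.43 and 2.22 CPM in WT and 7.16, 10.1 and 8.27 CPM in KO (log2 1.69, SE 0.38). WT mouse 305 was the highest WT mouse and KO mouse 304 the highest KO mouse in each, and no KO mouse was below a WT mouse. The signalling genes Stat2 (0.58) and Irf9 (0.57) rose, and Irf1 did not pass the test (0.05, SE 0.07). Of 9 guanylate binding protein genes, a family of close paralogs that interferon also induces, 6 rose, among them Gbp9 (3.48) and Gbp6 (2.91).

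Few genes of the cell cycle machinery passed the test. Of 55 DNA replication genes, 1 rose and 4 fell (median -0.06), 3 and 10 with the mice as pairs and 2 and 4 without mice 305 and 304, and of 65 mitosis genes 1 rose and 4 fell (median 0.02). All 4 shares in the unpaired test were below those of all genes. Mki67 stood at 787, 799 and 782 CPM in WT and 936, 921 and 759 CPM in KO, and mice of the groups overlapped. Several regulators of the cycle changed. Cdkn1a (p21) stood at 11.5, 13.4 and 14.7 CPM in WT and 30.8, 27.2 and 40.8 CPM in KO (log2 1.32, SE 0.16), Ccne1 (cyclin E1, 1.1) and E2f2 (0.53) rose, and Cdkn1c (p57, -1.52) and E2f1 (-0.36) fell. Among 28 p53 targets 8 rose (28.6%) and 3 fell (10.7%), against 10.6% and 12.8% of all genes. Pmaip1 (NOXA) stood at 2.53, 3.44 and 2.83 CPM in WT and 9.77, 22.1 and 13.7 CPM in KO (log2 2.37), and Zmat3 (1.05) and Phlda3 (0.92) rose, while Perp fell (-0.99) and Trp53 (-0.05) and Mdm2 (-0.03) did not pass the test.

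Genes of the cytosolic ribosome fell by small amounts. Of 78 tested, 54 fell and 1 rose, with a median of -0.19. Rps19 stood at 998, 1086 and 999.9 CPM in WT and 797, 845 and 832 CPM in KO (log2 -0.32, SE 0.06), and Rpl28 had the lowest value among those that fell (-0.40). The 1 that rose, Rpl3l, is the muscle paralog of Rpl3. Among mitochondrial ribosomal genes 2 of 78 rose and none fell, with a median of 0.01. Histone genes fell in 12 of 63 cases (19%, against 12.8% of all genes and 15.2% of protein-coding genes) and rose in none. Poly(A) selection, however, captures most histone mRNA poorly. In glycolysis, 10 of 29 genes fell, among them the hexokinase Hk3 of myeloid cells (-1.19) and Pfkp (-0.59), and 5 rose, 3 without mice 305 and 304.

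Surface molecules that guide cells changed in both directions. Plxnb2 (plexin B2) stood at 77.4, 90.6 and 110.5 CPM in WT and 7.47, 7.69 and 10.8 CPM in KO (log2 -3.42, SE 0.18), and Plxnd1 at 38.8, 40.8 and 44.9 CPM in WT and 9.08, 8.43 and 9.08 CPM in KO (log2 -2.23, SE 0.09). The groups of both genes were far apart. Nrp2 (-2.47) fell and Plxna2 (1.76) rose, and of 28 plexins and semaphorins 9 fell and 7 rose. Itgax (CD11c) stood at 4.29, 5.11 and 7.02 CPM in WT and 64.5, 30.6 and 81.5 CPM in KO (log2 3.43, SE 0.35) and rose beside its neighbour Itgam (1.92). Itgb1 (-0.45), Esam (-1.69) and Cdh1 (-1.68) fell, and Itga4 (0.31) rose.

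Families of genes defined by their symbols differed in how many members passed the test. They held protein-coding genes only, of which 12.2% rose and 15.2% fell. Tetraspanins, organisers of membrane proteins, fell in 8 of 16 cases and rose in 3, among them Tspan33 (1.3), which is known for its place in erythroid cells. Among Wnt ligands and frizzled receptors 5 of 12 fell, all of them receptors (Fzd4 -2.52, Fzd1 -2.31, Fzd6 -0.70, call lost without mouse 300 or 309, edgeR adjusted p up to 0.164, Fzd5 -0.62 and Fzd7 -0.37), and none rose. C-type lectins fell in 6 of 16 cases, among them Clec9a of dendritic cells (-2.76) and Clec12a of myeloid cells (-1.74). Of 8 SOCS genes, which cytokine receptors induce as a brake, 2 rose (25%, against 10.6% of all genes), Socs2 by 1.65 and Cish by 0.82. The largest family, 361 zinc finger genes named Zfp, had 4.99% higher and 7.76% lower, under the shares of all genes. Of 45 subunits of respiratory complex I only Ndufb7 passed (-0.31).

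The 12 largest rises, among genes above 1 FPKM whose groups did not overlap, were Chga, Meg3, Scd1, P2ry12, Postn, Rian, AA467197, Dsp, Tspan15, St8sia1, Gm9761 and Trim10. Chga (chromogranin A, of secretory granules in endocrine cells) stood at 0.395, 0.538 and 0.142 CPM in WT and 14.8, 10.7 and 16.03 CPM in KO (log2 5.21, SE 0.34). Scd1, a fatty acid desaturase, stood at 0.481, 1.47 and 0.496 CPM in WT and 20.95, 35.3 and 6.17 CPM in KO (log2 4.65, SE 0.68), with a wide spread among KO mice. Dsp (desmoplakin) stood at 1.82, 0.897 and 0.921 CPM in WT and 19.2, 18.2 and 21.6 CPM in KO (log2 4.0, SE 0.25), a tight rise. Trim10, needed for terminal erythroid differentiation, rose by 3.47. The 12 largest falls were Prss34, Gm45837, Klk8, F13a1, Pik3r6, Plbd1, Ifi209, AI427809, Slc35e4, Cyp27a1, Emid1 and Met. Klk8 (a serine protease) stood at 22.4, 20.5 and 22.2 CPM in WT and 0.971, 0.8099 and 1.002 CPM in KO (log2 -4.55, SE 0.13, edgeR adjusted p = 8.84e-07). Ifi209, of the interferon-induced Ifi200 cluster, stood at 29.05, 56.98 and 65.3 CPM in WT and 2.07, 3.65 and 2.64 CPM in KO (log2 -4.16) opposite to the listed interferon genes that rose. Met, the receptor of hepatocyte growth factor, stood at 13.6, 27.9 and 25.2 CPM in WT and 1.73, 2.099 and 1.58 CPM in KO (log2 -3.62). Gm45837 overlaps Pde2a and Arap1, and the counting could assign their reads to it. Of these 12 falls 11 were GMP-high genes in WT, and AI427809 was MEP-high.

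Transcript usage changed in few genes. The edgeR test for unequal change of the transcripts of a gene called 72 of 6748 genes with at least 2 transcripts above 5% (1.07%), and 56 of them (0.83%) also passed limma's test. The genes named here passed both. The limma p-values below are for the gene as a whole, not for the transcript named beside them. In edgeR's test of single transcripts Pigq-218 passed (adjusted p = 0.0259). Oxr1-205, Fbxl19-207, Golga1-201, Terf2-202 and the transcripts drawn for Pcdh7, Stambp and Sh3bp2 did not. The 2 transcripts that moved most apart started more than 500 bases from each other in 51.8% of the 56 genes, against 36.2% of all genes tested, and ended more than 500 bases apart in 28.6% against 48.4%. Pigq, of glycolipid anchor synthesis, moved from Pigq-201 to Pigq-218, whose share went from 21.7% ± 3.099 to 38.3% ± 7.896 (SD, 3 mice each, limma adjusted p = 0.00445). For Oxr1 the share of the short Oxr1-205 went from 41.7% to 56.5% (limma adjusted p = 0.0494), and for Fbxl19, which encodes a CpG-binding F-box protein, that of Fbxl19-207 from 37.5% to 52.5% (limma adjusted p = 0.0439). Golga1, of the Golgi, moved toward Golga1-201, from 36.4% to 56.2% (limma adjusted p = 0.0439), and Terf2, a telomere protein, toward Terf2-202, from 23.6% to 38.01% (limma adjusted p = 0.0455). Pcdh7, Stambp and Sh3bp2 are drawn in the plot of transcript shares. With each library left out in turn, the edgeR test kept Pigq in all 6 fits, and the highest adjusted p of the other genes drawn lay between 0.165 (Oxr1) and 0.319 (Stambp).

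**Figure D4:**
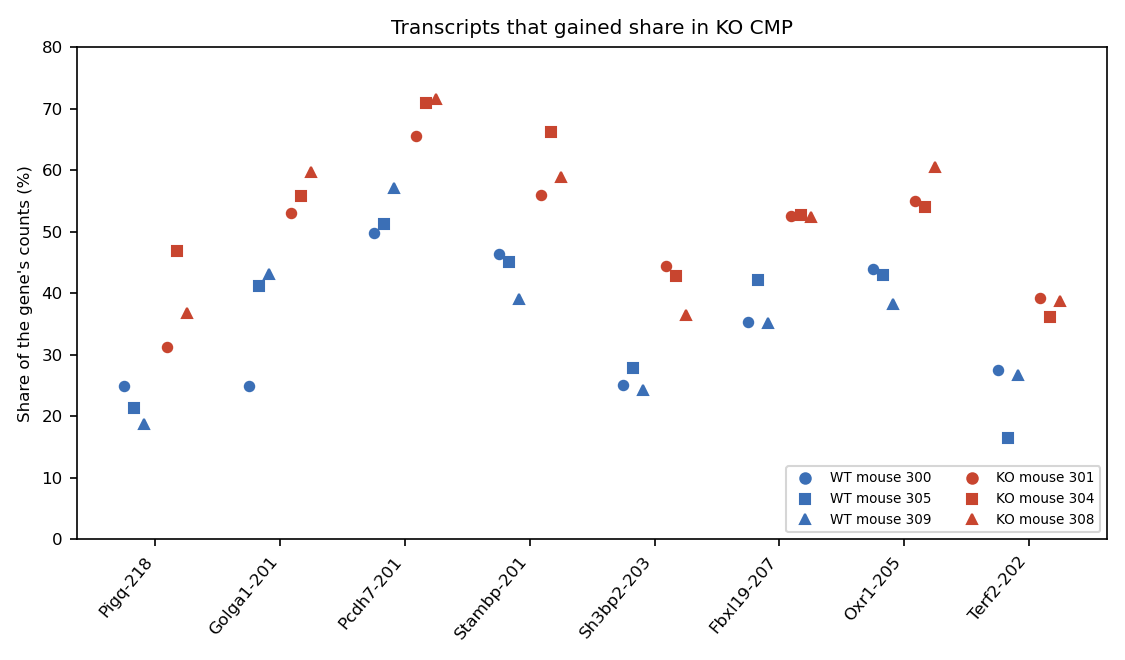
Share of the gene's counts held by 1 transcript of each of 8 genes in CMP, in %, with 1 point per mouse. Genes were picked for a transcript share without overlap between genotypes, so the gap between KO and WT mice follows largely from that choice. Golga1-201, for example, stood at a mean of 36.4% in WT and 56.2% in KO.

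Shares of transcript classes did not pass the test. Retained-intron transcripts held 3.58% ± 0.249 of the counts of protein-coding genes in WT and 3.62% ± 0.261 in KO (SD, 3 mice each). The difference had p = 0.8 by a two-sided exact permutation test, for which 0.1 is the smallest possible p. Transcripts marked for nonsense-mediated decay held 2.002% and 2.05% (p = 0.3, the same exact test).

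Whether the genotype effect in CMP differed from that in GMP and MEP was tested with interaction terms in 1 model of the 18 CMP, GMP and MEP libraries that kept the mouse as a block. The effect differed between GMP and CMP in 3777 genes (19.7%), and between MEP and CMP in 2353 (12.3%), or 1464 without WT mouse 309. Of all 105 erythroid genes tested, 62 differed from GMP, with the higher effect in CMP for 54 and the lower for 8. From MEP 44 differed, with the higher effect in CMP for 34 and the lower for 10. Rhag, for one, had log2 fold changes of 2.19 (CMP), 0.40 (GMP) and 0.64 (MEP). Hbb-bs had 3.01 (CMP), 0.50 (GMP) and 2.86 (MEP), and its difference between MEP and CMP did not pass the test (-0.18, SE 0.65).

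Primary granule genes differed between CMP and GMP. In 19 of 22 the genotype effect was higher in GMP than in CMP and in none was it lower. Ctsg had a log2 fold change of -2.23 in CMP and 0.54 in GMP, a difference of 2.76 (SE 0.25, interaction adjusted p = 1.35e-05 by edgeR), and Gfi1 had -0.99 and 0.92. Late granule genes gave 16 higher and none lower. For megakaryocyte genes the effect was higher in MEP than in CMP for 22 of 37 and lower for 1. Pf4 had -1.02 in CMP and 1.33 in MEP (difference 2.35, SE 0.43, interaction adjusted p = 0.00337 by edgeR), and Itgb3 had -1.11 and 1.03. The effect on interferon genes was lower in GMP than in CMP for 19 of 36 and higher for none, and early lymphoid genes had a lower effect in GMP for 13 and in MEP for 10 of 34. Plxnb2 fell in all 3 populations, with -3.42 (CMP), -3.81 (GMP) and -3.23 (MEP), and neither difference passed the test (-0.48, SE 0.39, and 0.13, SE 0.53).

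**Figure D5:**
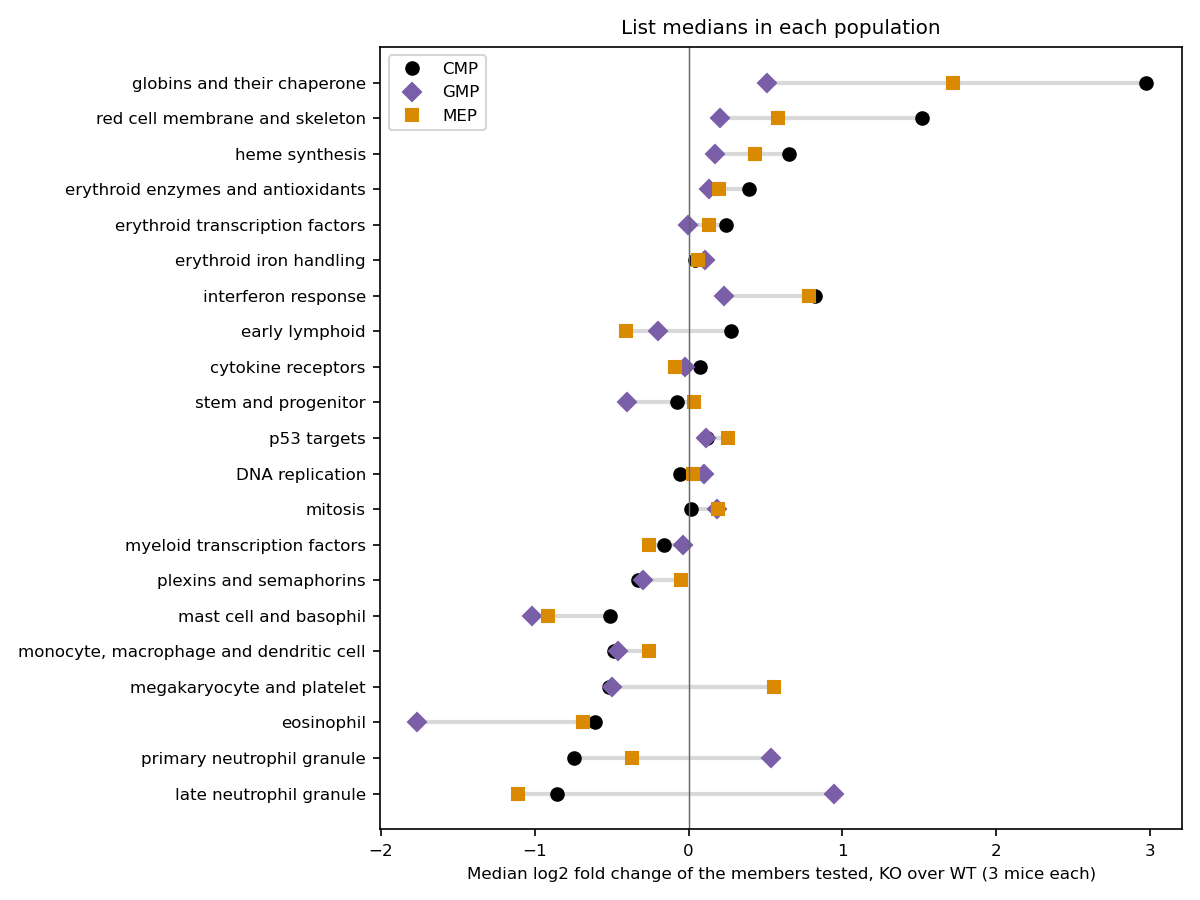
Median log2 fold change, KO over WT, of the members tested in each of 21 gene lists in CMP (circles), GMP (diamonds) and MEP (squares), 3 mice per genotype. Primary granule genes stand at -0.74 in CMP and 0.53 in GMP, and megakaryocyte genes at -0.52 in CMP and 0.56 in MEP.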

How the data were processed

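RNA from sorted cells was made into TruSeq poly(A)-selected libraries. The authors ran kallisto on each library against an Ensembl mouse transcriptome and deposited 1 table per library, with estimated counts and TPM per transcript. Their processing notes also name DESeq2 and mm10. The deposited TPM are kallisto's counts divided by effective length and scaled to the same total in each library. They were used for summed levels of lists and to weight the effective lengths of transcripts within a gene. Alternatives of the stricter call and of the transcript class shares used them too. Transcripts were assigned to genes with GENCODE vM21. Estimated counts were summed per gene, rounded, filtered (filterByExpr), scaled by TMM and tested in R 4.3.3 with edgeR 4.0.16 (quasi-likelihood, 3 KO against 3 WT, Benjamini-Hochberg FDR of 0.1). FPKM, used for the stricter call, were computed from counts and effective lengths. Transcript usage was tested with edgeR's diffSpliceDGE for transcripts above 5% of a gene, and with limma 3.58.1. Simulated counts had independent mice, the same relative spread for every gene and no genes with few counts. On them the CMP gene test kept its FDR. In the same simulations 3 tests made somewhat more false calls than their threshold allows. These were the interaction test between GMP and CMP, the MEP and GMP comparison and limma's usage test, and the edgeR usage test made the most. Whether the tests keep their FDR with mice alike in pairs or genes with few counts was not tested. The interaction model covered 18 libraries and blocked on the mouse, and MEP-high and GMP-high genes came from WT MEP against WT GMP, likewise blocked. Shares of transcript classes were compared by exact permutation of the libraries. DESeq2 1.42.0, other scalings, filters, a length offset and left-out mice served as alternatives.

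The labels give no pairs, and the study's methods call the controls sex-matched littermates without naming litters. Neighbouring mouse numbers, in the column order of the study's supplement, were checked as pairs (300 with 301, 305 with 304, 309 with 308). The deviations of paired mice from their group means correlated at 0.316, 0.48 and 0.342 over 12704 genes. Those of other pairs of mice correlated at -0.376 to 0.112, so the mice were treated as paired in an alternative. Deviations from a group mean cancel out over its mice. Positive values in some pairs therefore push others down, and part of this gap is built in. Gene lists (33 lists), families and members were chosen with earlier results of these data known. Named genes were Arid1a and Arid1b, the 12 largest changes each way above 1 FPKM without overlap, and the defining and up to 5 further members of each list. Added to these were up to 3 of each family and 12 genes for transcripts. Those 12 had the largest share differences without overlap, among protein-coding genes called by edgeR at 10 CPM or more. Further genes were named after their values were seen. Some genes, a gene family and a sequence that these rules cover are not reported here.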

Additional observations from a re-analysis of the deposited data

Results flagged for a closer look

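The genotype effect differed between GMP and CMP in 3777 genes and between MEP and CMP in 2353 genes at an FDR of 0.1, which puts these differences here. Among the genes named above, those that passed in both populations with opposite signs are listed with the difference of the 2 log2 fold changes. The effect was higher in GMP than in CMP for the granule genes Ctsg (2.76), Mpo (1.71), Elane (1.62), Prss57 (1.3) and S100a8 (3.4). The same held for the factors Gfi1 (1.87), Nfil3 (1.6), Cebpb (1.49), Xbp1 (0.77) and Fli1 (0.55), for the receptor chain Csf2ra (1.11) and for the glycolysis genes Hk3 (1.53) and Pfkp (0.82). It was lower in GMP for the erythroid genes Klf3 (-1.41), Gata1 (-1.29), Car2 (-1.03) and Bcl11a (-0.78), for Il1rl1 (-1.35) and for Postn (-6.52). Compared with CMP, the effect in MEP was higher for the platelet genes Pf4 (2.35), Itgb3 (2.13) and Vwf (1.94). It was lower in MEP for Rag1 (-4.71), Blnk (-3.76), Il1r1 (-2.09), Runx3 (-1.25), Il1rl1 (-0.43) and Phf10 (-0.35).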

How the results depend on the processing

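The 4030 calls in CMP became 4008 with median-of-ratios size factors, 4049 without a filter on low counts, 4048 with DESeq2, 3666 with DESeq2 and a length offset, 3506 with edgeR and that offset, and 3929 in a fit of all 18 libraries. With neighbouring mouse numbers as a block there were 5423, of which 3988 were among the 4030, and the block lost no call of a named gene. Leaving out 1 mouse gave 2726 to 3835 calls in all, 1438 to 2112 of them lower, with the fewest without KO mouse 301. The same step gave 1464 to 2638 differences between MEP and CMP, with the fewest without WT mouse 309, and 38 to 52 lower MEP-high genes. Leaving out both mice that lack Y-linked counts, a choice made after seeing the data, gave 3636 calls. Of 201 called genes named here, 173 passed under every alternative in CMP and none changed sign. Fli1, Flt3, Gp1bb and Itga2b lost the call only in the fit of all 18 libraries and Cish only with a length offset. The cause was not tested. The block brought in 7 named genes, given beside their values, and changed no other call among them. In all 12 named genes without a call passed under some alternative. Besides those 7 these were Csf3r, Cebpe and Dntt, given beside their values, Kit without WT mouse 305 and Mki67 without KO mouse 308. The share of higher calls between GMP and CMP was 45.2%, and 54.7% with size factors, under which all 3777 kept their sign. Transcript usage gave 72 calls, 74 with limma, 55 with transcripts above 10%, 100 above 1% and 72 with the block. Genes near 1 CPM rest on few reads and wide errors, and the floxed exon and other unannotated junctions were not measured here.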

Other observations

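Imprinted genes, of which cells normally use 1 parental copy, held some of the largest changes in KO CMP. Of 33 tested, 10 rose (30.3%) and 6 fell (18.2%), against 10.6% and 12.8% of all genes. The neighbours Meg3, Rian and Dlk1 on chromosome 12 rose. Meg3, a long non-coding RNA, stood at 0.206, 0.197 and 0.236 CPM in WT and 5.46, 9.85 and 5.68 CPM in KO (log2 5.03, SE 0.32), and Rian at 0.447, 0.251 and 0.378 CPM in WT and 4.57, 10.1 and 4.97 CPM in KO (log2 4.18, SE 0.39). Dlk1, which encodes a Notch-like surface protein, stood at 0.361, 0.628 and 0.567 CPM in WT and 3.19, 4.07 and 2.62 CPM in KO (log2 2.67, SE 0.28). No WT mouse overlapped the KO mice in these genes. Snrpn (2.92) and Ndn (2.84), neighbours on chromosome 7, and Peg10 (0.91) and Igf2r (0.97) rose as well. Phlda2 (-2.62), Ascl2 (-2.22) and Cdkn1c (-1.52), of another imprinted region of chromosome 7, fell. On chromosome 12 as a whole 11.8% of genes rose and 9.07% fell.

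Genes of neuroendocrine secretion were few. Of 9 tested, 3 rose, Chga with Slc18a1, the vesicular monoamine transporter of endocrine cells (3.57), and the vesicle protein Syp (1.08). Slc18a2, the related transporter that mast cells use, fell (-1.39), and so did Stx1a (-1.02, call lost without mouse 305, 309, 301, 304 or 308, edgeR adjusted p up to 0.252), which left 1 fall without mice 305 and 304. For the next counts, 10.6% of all genes tested rose and 12.8% fell. With the mice as pairs more genes were called, 2537 higher and 2886 lower. In amino acid metabolism Psat1 (-0.49) and Phgdh (-0.36) of serine synthesis fell and Cth, which makes cysteine, rose (1.51), with 7 of 28 higher and 2 lower (11 and 5 with the mice as pairs). Fatty acid and cholesterol genes were near the share of all genes, with 5 of 39 higher (12.8%) and 5 lower (12.8%, 8 higher with pairs), and only Scd1 and Acacb (-1.12) among them changed more than 2-fold in a fit that no single mouse overturned. Polycomb and DNA methylation genes were near it, with 5 of 34 higher (14.7%), among them Bmi1 (0.32) and Cbx7 (0.52), and 2 lower (5.88%, 12 and 5 with pairs, 9 higher without mice 305 and 304). Immediate early genes were also near it, with 5 of 31 higher (16.1%), among them Ier3 at 0.90, and 4 lower (12.9%), among them Ier2 at -0.56 (7 lower with pairs). Cyclins and their inhibitors had 7 of 21 higher and 5 lower, and adhesion genes 8 of 38 higher and 11 lower. Of 697 long intergenic non-coding RNAs, 6.89% rose and 4.59% fell, against 12.2% and 15.2% of 13590 protein-coding genes.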
